A study of Glycine max with 24 samples.

Results

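SFERH-2 is a soybean gene for a ferritin subunit, carried in the annotation as Entrez gene 547988 with the synonym Fer1-1. It was measured by 4 probe sets that the probe-to-gene table assigned to this gene alone, out of 37593 soybean probe sets and 6029 genes with a single-gene probe set. All 4 probe sets are described. The gene was chosen by its measured pattern over these arrays, so its levels and differences are given as a description with no test. SFERH-2 gave its highest signal in roots kept in aluminium (Al) alone for 72 h and its lowest in roots kept in Al plus magnesium (Mg) for 72 h. At 72 h the Al plus Mg arrays were 33.4-fold lower in the genotype PI 416937 and 45.4-fold lower in the genotype Young on the leading probe set.

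Ferritins are hollow protein shells that take up ferrous iron, oxidise it and hold it as a mineral that does little harm to the cell. In plants they sit mainly in plastids, and their genes are controlled largely at transcription, with more transcript when iron is in excess and in several kinds of oxidative stress. In legume roots they are also known from nodules, where iron is needed in quantity for leghaemoglobin and nitrogenase.

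The series profiled root tips of 1 cm from 2 soybean genotypes, PI 416937 (called PI) and Young, grown hydroponically and exposed to 10 µM Al, either alone or together with Mg. Tips were taken after 12 h or 72 h, which made 8 groups of 3 arrays each. Every group received Al, and no array came from roots without it. The labels give no Mg dose. They tag PI as sensitive and Young as tolerant to Al, the reverse of how these lines are usually described, so the lines are called by name here. Whether the replicates of a group came from different plants is not stated, so the p-values below cover array-to-array spread only, which may be technical.

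On all 24 arrays, 77.8% to 81.4% of the soybean probe sets lay above the array's background bound, the 99th percentile of 23350 probe sets for the soybean pathogens on the same array. That bound was between 2.723 and 3.103 on the log2 scale. No 2 arrays held identical values, and arrays of a group correlated at r = 0.981 to 0.994. One array stood apart from its label. Replicate 3 of Young in Al alone at 12 h correlated at 0.981 and 0.983 with the other 2 arrays of its group and at 0.989 to 0.9945 with the arrays of Young in Al plus Mg at 12 h. Its mean absolute log2 difference was 0.349 to 0.384 from its own group and 0.194 to 0.285 from that other group. The differences that use this array are given with and without it. It was singled out by its likeness to the Al plus Mg arrays. Leaving it out therefore favours a larger Mg difference in Young at 12 h, also where that difference is compared with PI.

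The labelled tissue was checked against marker genes. Among 11 nodule genes, 6 were above the bound on no array, namely N-21, N-22, N-23, N-44, N-56 and N-70. NOD33 and ENOD40B were above it on all arrays of every group. The photosystem gene PSAD gave 13.42 to 14.26 as group means on its representing probe set, while its other probe sets had means of 2.7 to 9.4. On its representing probe set, the light-harvesting gene CAB3 gave group means of 6.02 to 6.81 at 12 h and 8.11 to 10.42 at 72 h. No root-specific marker could be named from the symbols. In whole root tips, fewer cells of a type and less RNA per cell cannot be told apart.

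The 4 SFERH-2 probe sets came from 2 target sequences. Gma.2505.2.S1_x_at and Gma.2505.2.S1_at query one of them, and Gma.2505.1.S1_at and Gma.2505.1.S1_a_at query the other. In Affymetrix naming, the suffix x_at marks probes that may also match other sequences, and a_at marks probes shared by transcripts of one gene. Gma.2505.2.S1_x_at had the highest mean over the arrays, 9.35 on the log2 scale, and is called the leading probe set. All 96 SFERH-2 values lay above the bound of their array, the nearest by 2.19 on the log2 scale. They ran from 4.96 to 12.77. The 6 pairs of probe sets correlated at r = 0.97 to 0.994 over the 24 arrays, which share the group structure and their libraries.

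SFERH-2 was among the more variable probe sets of the array. The SD of the leading probe set over 24 arrays was 2.07 on the log2 scale, the 470th highest of 37593, and its range was 6.05. The other 3 probe sets ranked 282nd, 432nd and 555th by the same measure.

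At 72 h in Al alone, SFERH-2 was high in both genotypes. The leading probe set read 12.02, 11.54 and 11.45 in PI (log2 intensity, replicates 1 to 3), a mean of 11.67 ± 0.31 (SD, n = 3). In Young it read 12.00, 11.93 and 11.93, a mean of 11.95 ± 0.04 (SD, n = 3). The arrays of both genotypes overlapped, and the 3 Young arrays lay within a few hundredths of each other.

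With Mg added, SFERH-2 was low in both genotypes at 72 h. The leading probe set read 6.01, 6.66 and 7.15 in PI, a mean of 6.61 ± 0.57 (SD, n = 3). In Young it read 6.14, 5.97 and 7.24, a mean of 6.45 ± 0.69 (SD, n = 3). In each genotype every Al plus Mg array lay below every Al array, with more than 4 log2 units between the nearest of them. The log2 difference, Al plus Mg minus Al alone, was -5.06 in PI, or 33.4-fold lower, and -5.50 in Young, or 45.4-fold lower. Ordered from the most negative, the leading probe set took place 279 of 37593 in PI and place 212 in Young.

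The other 3 probe sets gave the same direction, with a larger size in Young on one target sequence. In PI the differences were -4.78 for Gma.2505.2.S1_at, -5.33 for Gma.2505.1.S1_at and -4.66 for Gma.2505.1.S1_a_at, or 27.6-fold, 40.3-fold and 25.2-fold lower. In Young they were -5.28, -7.12 and -6.28 in the same order, or 38.9-fold, 139.1-fold and 77.8-fold lower. All arrays of the compared groups were apart on all 4 probe sets. The difference of the Mg effect between genotypes, PI minus Young, was 0.44 and 0.50 log2 on the Gma.2505.2 sets and 1.79 and 1.63 on the Gma.2505.1 sets. It therefore depended on the target sequence that was read.

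**Figure D1:**
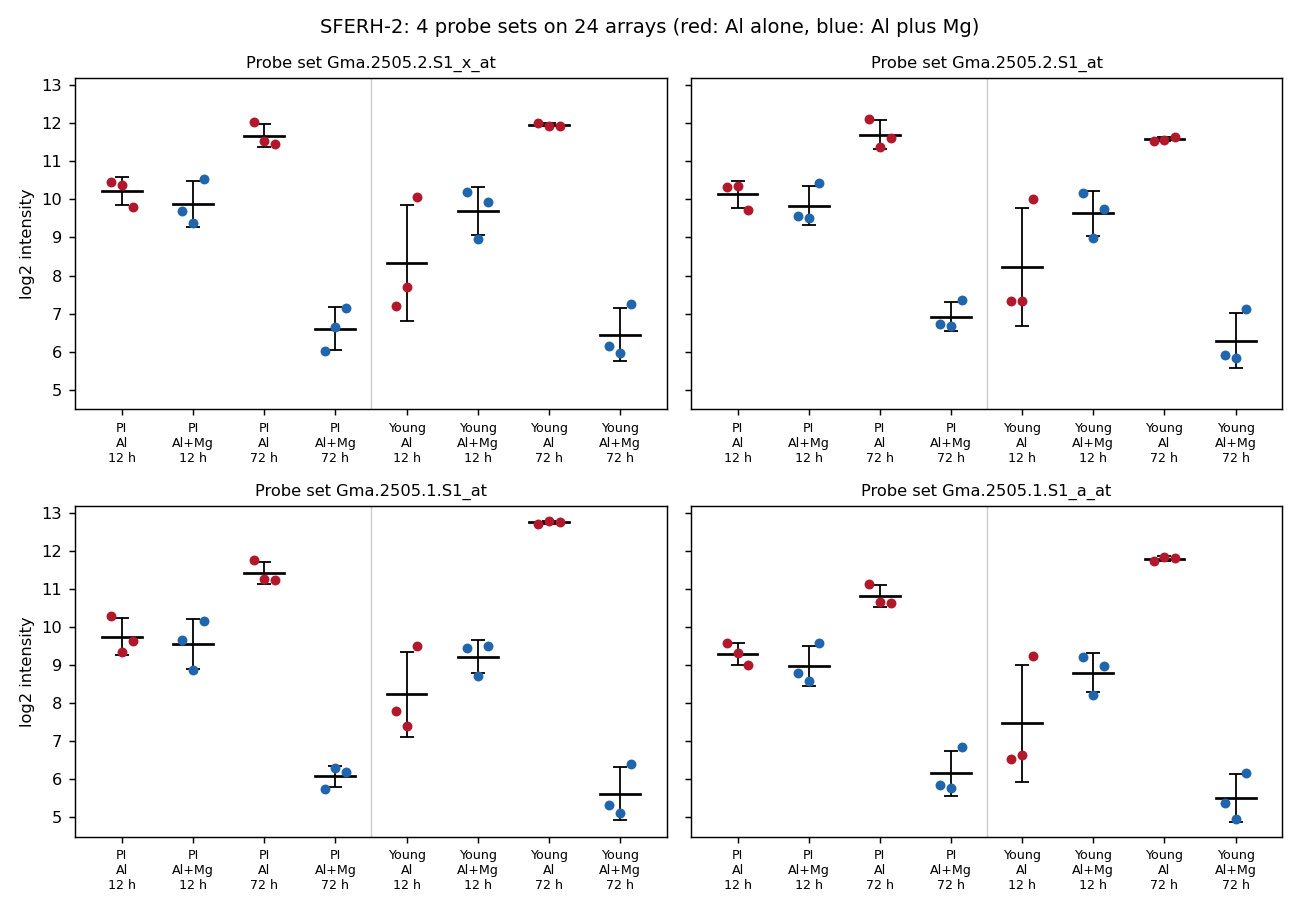
Log2 intensity (vertical axis) of the 4 SFERH-2 probe sets on each of the 24 arrays, by group (horizontal axis); points are arrays in replicate order from left to right, red for Al alone and blue for Al plus Mg, with bars for the mean and SD of 3 arrays. Within each genotype the mean of the Al arrays at 72 h is highest and that of the Al plus Mg arrays at 72 h lowest, and replicate 3 of Young in Al alone at 12 h sits 1.91 to 2.67 above the mean of the other 2 arrays of its group.

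At 12 h the picture in PI was flat. The leading probe set read 10.46, 10.38 and 9.80 in Al alone, a mean of 10.21 ± 0.36 (SD, n = 3). It read 9.70, 9.37 and 10.54 in Al plus Mg, a mean of 9.87 ± 0.60 (SD, n = 3). The arrays overlapped, and the log2 difference was -0.34. The other probe sets gave -0.30, -0.20 and -0.32.

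In Young at 12 h SFERH-2 depended on a single array. In Al alone the leading probe set read 7.21, 7.71 and 10.05, a mean of 8.32 ± 1.52 (SD, n = 3), and in Al plus Mg it read 10.18, 8.97 and 9.92, a mean of 9.69 ± 0.64 (SD, n = 3). Replicates 1 and 2 in Al alone lay below every Al plus Mg array, while replicate 3, the array described above as standing apart, lay among them. Its gap to the mean of replicates 1 and 2 was 2.59 log2, the 200th largest of 37593, where the median absolute gap of all probe sets was 0.19. The difference, Al plus Mg minus Al alone, was 1.37 log2 with all arrays and 2.23 without replicate 3, or 2.58-fold and 4.69-fold higher with Mg. On the other 3 probe sets it was 1.41, 0.99 and 1.32 with all arrays and 2.31, 1.63 and 2.20 without that replicate. With or without it, the Mg difference in Young had opposite signs at 12 h and 72 h.

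Over time, the level in Al alone was higher at 72 h than at 12 h and the level in Al plus Mg was lower. In Al alone the leading probe set differed by 1.46 log2 in PI, or 2.75-fold, and by 3.63 in Young, or 12.4-fold. Without replicate 3 of Young at 12 h the latter was 4.50, or 22.57-fold. In Al plus Mg the differences were -3.26 in PI and -3.24 in Young, or 9.60-fold and 9.43-fold lower at 72 h. The 12 h and 72 h arrays did not overlap in any of these 4 comparisons, on any of the 4 probe sets. The other 3 probe sets gave 1.51 to 1.66 in PI and 3.35 to 4.52 in Young for Al alone, and -3.48 to -2.82 in PI and -3.59 to -3.28 in Young for Al plus Mg.

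On the leading probe set, the genotypes lay furthest apart in Al alone at 12 h. There the difference PI minus Young was 1.89 log2, or 3.71-fold higher in PI, with overlapping arrays. Without replicate 3 of Young it was 2.75, or 6.74-fold, and the remaining arrays did not overlap. In Al plus Mg it was 0.18 at 12 h and 0.16 at 72 h, with overlap in both cases. In Al alone at 72 h the sign differed between probe sets. It was -0.28 for the leading probe set and 0.13 for Gma.2505.2.S1_at, both with overlapping arrays. It was -1.34 for Gma.2505.1.S1_at and -0.98 for Gma.2505.1.S1_a_at, where all 3 Young arrays lay above all 3 PI arrays. On Gma.2505.1.S1_at the PI arrays read 11.75, 11.25 and 11.24 and the Young arrays 12.71, 12.77 and 12.76.

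Ordered by the mean of the leading probe set, the 8 groups ran from Young in Al alone at 72 h (11.95) over PI in Al alone at 72 h (11.67), PI in Al alone at 12 h (10.21), PI in Al plus Mg at 12 h (9.87), Young in Al plus Mg at 12 h (9.69) and Young in Al alone at 12 h (8.32) to PI in Al plus Mg at 72 h (6.61) and Young in Al plus Mg at 72 h (6.45). With all arrays, neighbours in this order overlapped except at 2 steps. One step of 1.46 separated PI in Al alone at 72 h from PI at 12 h, and one of 1.71 separated Young in Al alone at 12 h from PI in Al plus Mg at 72 h. These are steps between means. At the lower step the nearest arrays read 7.21 and 7.15, and the highest array of Young in Al plus Mg at 72 h read 7.24. Without replicate 3, Young in Al alone at 12 h had a mean of 7.46 and a range of 7.21 to 7.71. It then also lay apart from its upper neighbour, Young in Al plus Mg at 12 h, which ran from 8.97 to 10.18.

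The nodule markers moved in both directions with Mg at 72 h, and NOD33 moved with SFERH-2 in part. In PI its means at 72 h were 12.50 in Al alone and 11.08 in Al plus Mg. In Young they were 13.51 and 11.33. The difference was -1.43 ± 0.50 (SE, n = 3 arrays per group) in PI and -2.18 ± 0.50 in Young (limma, adjusted p = 0.0345 and 0.00195). ENOD93 rose in PI by 1.93 ± 0.62, with overlapping arrays, and gave -0.47 ± 0.62 in Young (limma, adjusted p = 0.0236 and 0.627). ENOD40B gave -0.18 ± 0.38 and 0.63 ± 0.38 and did not pass (limma, adjusted p = 0.776 and 0.211). In PI the summed intensity of the 11 nodule markers at 72 h was 4490.0 to 7994.5 in Al alone and 2078.2 to 2555.3 in Al plus Mg. In Young it was 8215.3 to 15006.1 and 2089.2 to 3224.4. NOD33 gave most of each sum, so the sums follow that gene and not the list. With 6 of the 11 markers above the bound on no array, the list does not show nodule cells in these tips. Any part of the nodule genes in the SFERH-2 levels was not tested. For the 2 green tissue markers the PI sums at 72 h were 11903.3 to 16076.5 in Al alone and 13229.3 to 15402.1 in Al plus Mg. The Young sums were 10025.9 to 12490.6 and 11703.0 to 12232.6, so treatments overlapped in each genotype. PSAD gave most of each of these sums, so they follow its representing probe set and not the list. CAB3 alone rose with Mg at 72 h in Young by 1.39 ± 0.35 (limma, adjusted p = 0.00445) and gave 0.12 ± 0.35 in PI. In Young its probe sets GmaAffx.1301.131.A1_x_at and GmaAffx.93190.1.S1_s_at rose by 1.51 and 1.67 (limma, adjusted p = 0.00892 and 0.0223). GmaAffx.759.1.S1_at gave 0.36 and did not pass (limma, adjusted p = 0.12). The part of CAB3 was likewise not tested.

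The other ferritin genes gave a check on whether the family moved together. The annotation named 3 of them, H-1 (also SFerH-1), SFERH-3 and SFERH-4, with 6 single-gene probe sets in all. A further probe set was assigned to H-1 and a second gene and was not used. These genes were picked by name and not by value, though the list was made with earlier results of these data known. They were tested with limma over all 37593 soybean probe sets, a probe set passing at an adjusted p under 0.05. The group means of the representing probe set, the one of highest mean, spanned 0.74 log2 in H-1, 1.32 in SFERH-3 and 0.91 in SFERH-4. The span in SFERH-2 was 5.50.

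SFERH-4 ran against SFERH-2 at a smaller size. At 72 h in PI it read 12.69, 12.48 and 12.50 in Al alone and 12.95, 13.14 and 13.03 in Al plus Mg. The groups did not overlap, and SFERH-4 rose by 0.48 ± 0.12 log2 (SE, n = 3 per group; limma, adjusted p = 0.00493). In Young it read 12.53, 11.88 and 12.26 in Al alone and 12.67, 12.84 and 12.95 in Al plus Mg. There it rose by 0.60 ± 0.12 (limma, adjusted p = 0.000697), a call that was lost when only the 6 arrays of the comparison were fitted (limma, adjusted p = 0.0622). From 12 h to 72 h in Al alone it fell by 0.57 in PI and by 0.63 in Young (limma, adjusted p = 0.00114 and 0.000297). Without replicate 3 of Young at 12 h the latter was -0.70 (limma, adjusted p = 0.000393). In Al plus Mg the time differences were -0.04 and 0.02 and did not pass.

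SFERH-3 rose with time in Al alone, by 0.87 ± 0.22 log2 in PI and 1.11 ± 0.22 in Young (SE, n = 3 per group; limma, adjusted p = 0.00432 and 0.000403). The Young value was 1.29 without replicate 3 at 12 h. In Al plus Mg it rose in Young by 0.74 ± 0.22 and gave 0.44 ± 0.22 in PI (limma, adjusted p = 0.0146 and 0.114). The Young call was lost without replicate 3 in Al plus Mg at 12 h (0.62, limma, adjusted p = 0.0711) and was not made on the probe set Gma.1160.1.S1_s_at (0.12, limma, adjusted p = 0.742). With Mg at 72 h its representing probe set did not pass, with differences of -0.52 ± 0.22 in PI and 0.21 ± 0.22 in Young (limma, adjusted p = 0.0766 and 0.517). Its probe set Gma.1160.1.S1_s_at fell by 0.84 ± 0.19 in PI (limma, adjusted p = 0.00253) and gave -0.12 in Young. Its remaining probe set was above the array bound on 3 of 24 arrays. H-1 read 11.81 to 13.24 over all arrays and passed in none of the Mg or time comparisons. Its Mg differences at 72 h were -0.43 ± 0.24 in PI and 0.01 ± 0.24 in Young (limma, adjusted p = 0.197 and 0.982).

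None of these 3 ferritins was called in the difference of the Mg effect between genotypes at either time, where 0.0133% of the soybean probe sets passed at 12 h and 1.45% at 72 h. Without replicate 3 of Young in Al alone, 6.95% passed at 12 h, and again no ferritin was among them. Over the 24 arrays, the leading SFERH-2 probe set correlated at r = 0.174 with the representing probe set of H-1, 0.101 with that of SFERH-3 and -0.486 with that of SFERH-4, as a description over arrays that share groups. Over 23 arrays, without the one that stood apart, these were 0.177, 0.114 and -0.484. The value depended on the probe set: it was 0.399 for the other H-1 probe set, 0.464 for Gma.1160.1.S1_s_at of SFERH-3 and -0.29 for the SFERH-3 probe set that was mostly under the bound.

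**Figure D2:**
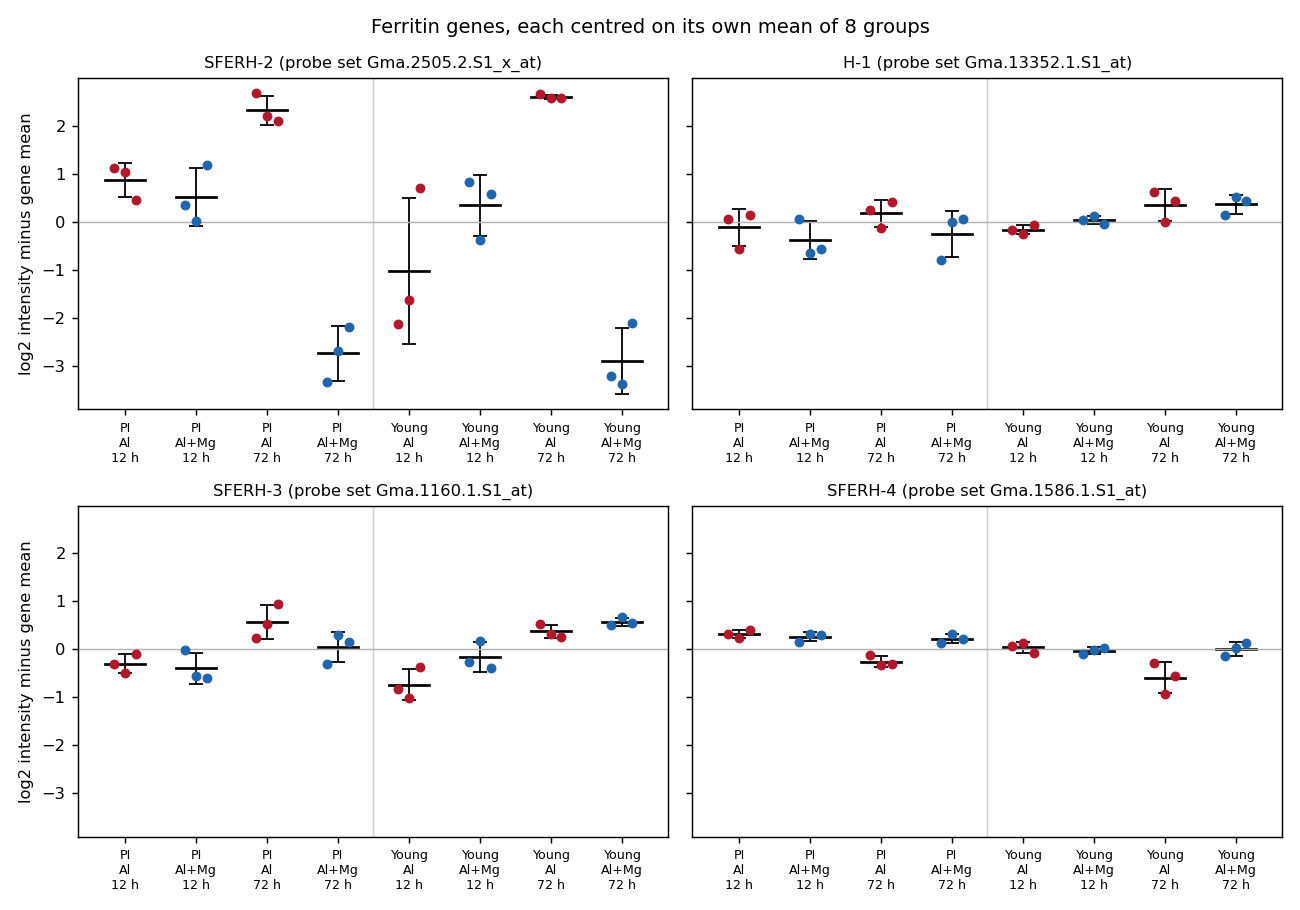
Log2 intensity of the representing probe set of 4 ferritin genes, minus the gene's own mean of the 8 groups (vertical axis, the same range in all panels), for 24 arrays by group (horizontal axis); points are arrays, red for Al alone and blue for Al plus Mg, with mean and SD. The group means of SFERH-2 span 5.50 log2, and those of H-1, SFERH-3 and SFERH-4 span 0.74, 1.32 and 0.91.

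Iron handling and oxidant defence were read from lists of gene symbols that held 30 genes besides SFERH-2. With Mg at 72 h in PI, 6 of the 30 rose and 5 fell, where 20.7% of all soybean probe sets rose and 13.0% fell (33.7% in all). In Young 8 rose and 6 fell, where 23.1% rose and 16.3% fell (39.3% in all). The median difference of the 30 genes was 0.13 log2 in PI and 0.11 in Young, against 0.06 and 0.03 over all probe sets tested. These counts are near the background shares.

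Of the listed genes, HO1 had the largest fall with Mg at 72 h in both genotypes. It is a haem oxygenase, an enzyme that opens haem and sets its iron free. At 72 h its representing probe set, Gma.8509.1.S1_x_at, read 12.81, 12.75 and 12.50 in PI in Al alone and 10.84, 10.34 and 10.63 in Al plus Mg. In Young it read 13.13, 13.46 and 13.35 in Al alone and 10.92, 10.77 and 10.29 in Al plus Mg. The groups were apart in both genotypes. With Mg, HO1 fell by 2.09 ± 0.22 log2 in PI and fell by 2.65 ± 0.22 in Young (SE, n = 3 per group; limma, adjusted p = 1.46e-06 and 6.45e-08). From 12 h to 72 h in Al alone it rose by 2.40 in PI and 3.54 in Young (limma, adjusted p = 4.78e-07 and 2.82e-09), and without replicate 3 of Young at 12 h the latter was 3.74. A second HO1 probe set, GmaAffx.55911.1.S1_at, disagreed, with Mg differences of -0.15 and -0.13 that did not pass.

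The other haem genes changed less. With Mg at 72 h, HO3, another haem oxygenase, fell by 0.97 ± 0.22 in PI (limma, adjusted p = 0.00224) and gave -0.26 ± 0.22 in Young (limma, adjusted p = 0.402). HEMB, which makes the pyrrole unit of haem, rose by 0.20 ± 0.05 in PI and 0.25 ± 0.05 in Young (limma, adjusted p = 0.00727 and 0.00117), the PI call being lost with the comparison's 6 arrays alone (limma, adjusted p = 0.129). HEMG did not pass in either genotype. Of the 4 haem genes, 1 rose and 2 fell in PI, where 33.7% of all soybean probe sets passed in either direction. In Young 1 rose and 1 fell, where 39.3% passed. With only 4 genes, the counts were not tested against these shares.

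Metal transport genes moved in both directions. With Mg at 72 h, HMA8, named after the heavy metal ATPases, fell by 0.97 ± 0.12 in PI and 0.53 ± 0.12 in Young (limma, adjusted p = 7.17e-06 and 0.00146). DMT1, a divalent metal transporter, rose by 0.63 ± 0.19 and 0.85 ± 0.19 (limma, adjusted p = 0.0178 and 0.00193). The DMT1 call in PI was lost without replicate 1 in Al alone (0.60, limma, adjusted p = 0.0542) or replicate 2 in Al plus Mg (0.52, limma, adjusted p = 0.084). In Young it was lost when the comparison's 6 arrays were fitted alone (limma, adjusted p = 0.0517). ZIP43 rose by 0.94 ± 0.21 in Young, and FRD3a, which in Arabidopsis exports citrate for iron transport in the xylem, fell by 0.74 ± 0.20 (limma, adjusted p = 0.00156 and 0.00748). In PI these 2 genes gave 0.34 ± 0.21 and -0.35 ± 0.20 and did not pass.

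Among 15 genes of oxidant scavenging, 1 rose and 2 fell with Mg at 72 h in PI, where 20.7% of all soybean probe sets rose and 13.0% fell. In Young 2 rose and 3 fell, where 23.1% rose and 16.3% fell. The counts were not tested against these shares. CAT5, among the 15, read group means of 2.45 to 2.58, under the lowest array bound of 2.723. PRX4 fell by 1.13 ± 0.15 in PI and 1.05 ± 0.15 in Young (limma, adjusted p = 1.95e-05 and 2.8e-05), and its other 2 probe sets fell by 1.04 to 1.70. The catalase gene CAT4 fell by 0.79 ± 0.27 and 0.94 ± 0.27 (limma, adjusted p = 0.0301 and 0.00938). Its call was lost in PI without replicate 2 in Al plus Mg (-0.66, limma, adjusted p = 0.115), among 4 arrays whose omission did so, and in Young without replicate 3 in Al plus Mg (-0.78, limma, adjusted p = 0.0523). In Young the superoxide dismutase genes SODB2 and SODB rose by 1.83 ± 0.56 and 1.52 ± 0.57 (limma, adjusted p = 0.0141 and 0.0436). Both calls were lost with an offset of 32 added before log2 (limma, adjusted p = 0.142 and 0.113) and without replicate 3 in Al alone (limma, adjusted p = 0.0609 and 0.136). That of SODB was also lost without any of 4 other arrays and with the pathogen probe sets tested as well (limma, adjusted p = 0.0762). CAT1 fell by 0.36 ± 0.10 in Young and SOD1 rose by 0.40 ± 0.10 in PI (limma, adjusted p = 0.00779 and 0.00398). Of these, CAT1 was lost without replicate 2 in Al alone (-0.26, limma, adjusted p = 0.0591), and both were lost with the comparison's 6 arrays alone (limma, adjusted p = 0.0687 and 0.077).

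Among 3 other metal-binding genes, MT2, a metallothionein, rose in Young by 0.81 ± 0.27, and PCS1, a phytochelatin synthase, rose in PI by 0.35 ± 0.12 (limma, adjusted p = 0.0207 and 0.029). Leaving out single arrays lost both calls, with MT2 at 0.63 without replicate 2 of Young in Al alone and PCS1 at 0.31 without replicate 1 of PI in Al alone (limma, adjusted p = 0.109 and 0.0937). GLB3, a haemoglobin gene, rose by 2.06 ± 0.53 in PI and 1.70 ± 0.53 in Young (limma, adjusted p = 0.00584 and 0.016). In PI the GLB3 call was lost with the comparison's 6 arrays alone (limma, adjusted p = 0.0639). In Young it was lost without replicate 1 in Al alone (1.39, limma, adjusted p = 0.073) or replicate 3 in Al plus Mg (1.57, limma, adjusted p = 0.0556).

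**Figure D3:**
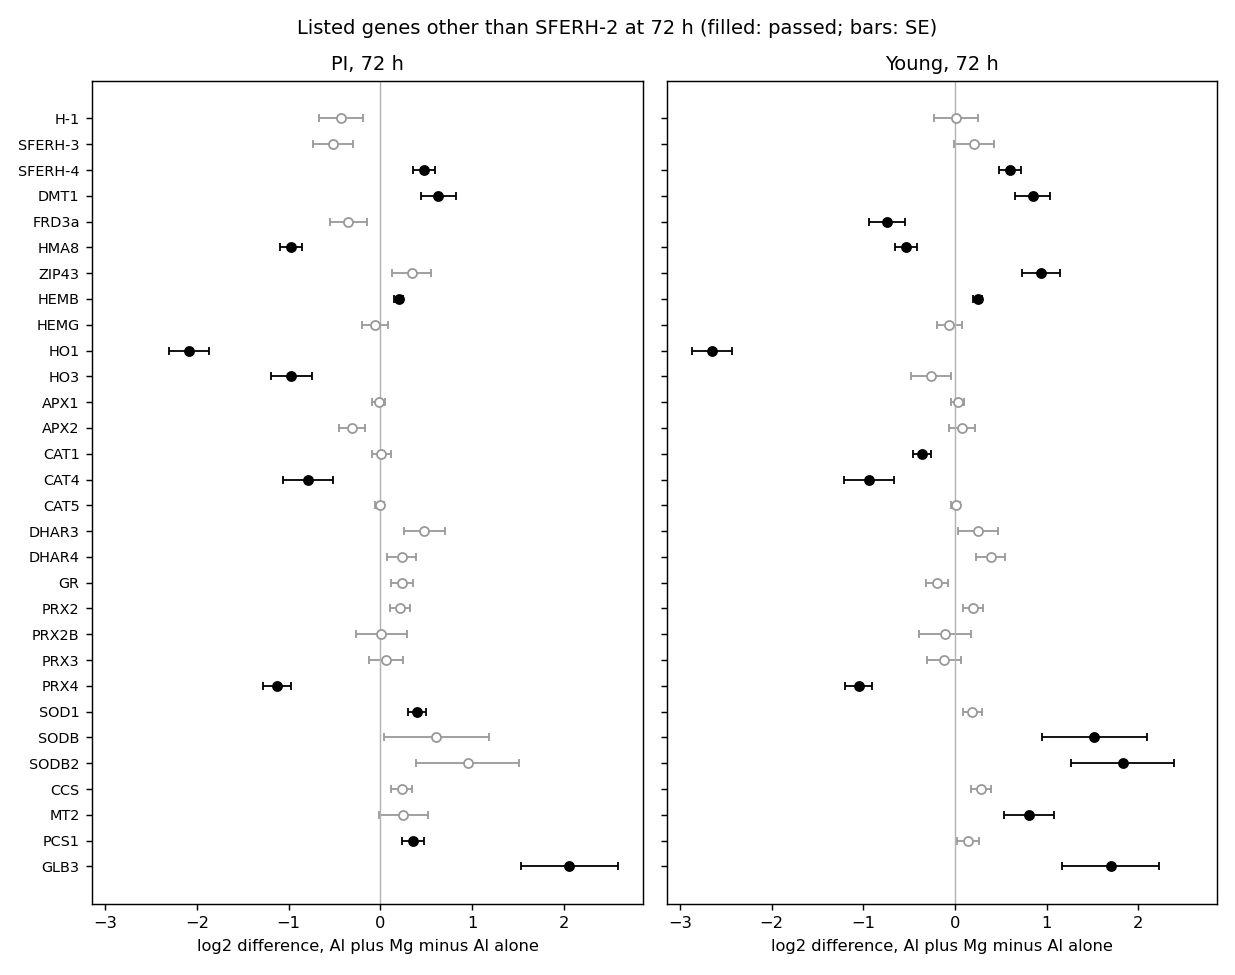
Log2 difference, Al plus Mg minus Al alone, at 72 h (horizontal axis) for the 30 listed genes other than SFERH-2 (vertical axis), with PI on the left and Young on the right; bars are the SE from limma with 3 arrays per group, and filled points passed an adjusted p under 0.05. HO1 lies lowest in both genotypes, at -2.09 and -2.65, and GLB3 lies highest in PI, at 2.06.

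At 12 h none of the 30 genes passed with Mg in either genotype, where 0.0293% of all probe sets, 11 of them, passed in PI and 0.0293%, also 11, in Young. At an unadjusted p under 0.05, limma gave 1412 probe sets in PI and 6396 in Young. Without replicate 3 of Young in Al alone, 3117 probe sets passed in Young, 8.29% of those tested, and 4 listed genes rose among them. These were PRX2B (1.39 ± 0.24), CAT4 (1.02 ± 0.24), HO1 (0.90 ± 0.22) and HMA8 (0.41 ± 0.12), with limma adjusted p = 0.00485, 0.0182, 0.0236 and 0.0483. The array left out was picked for its likeness to the Al plus Mg group of this same comparison. Its removal favours such calls, so these p-values are a description only. HO1, CAT4 and HMA8 were higher with Mg at 12 h in this fit and lower with Mg at 72 h, and SFERH-2 had the same order of signs. PRX2B, the largest of the 4 at 12 h, changed little at 72 h in Young. Its means there were 12.71 in Al alone and 12.61 in Al plus Mg, with overlapping arrays.

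From 12 h to 72 h in Al alone, 9 of the 30 genes rose and 7 fell in PI, where 39.2% of all probe sets passed, and 10 rose and 5 fell in Young, where 49.7% passed. In Al plus Mg 6 rose and 4 fell in PI, where 44.1% passed, and 6 rose and 2 fell in Young, where 31.1% passed. Between genotypes, 3 listed genes differed in Al alone at 12 h (4.21% of all probe sets), 7 in Al plus Mg at 12 h (13.6%), 4 in Al alone at 72 h (12.6%) and 5 in Al plus Mg at 72 h (9.83%). Ferritins were in none of these genotype counts. Without replicate 3 of Young in Al alone at 12 h, 11 listed genes rose and 7 fell with time in Young in Al alone (50.1% of all probe sets), and 1 differed between genotypes in Al alone at 12 h (5.34%). PRX4 was higher in PI in all 4 genotype comparisons, by at least 0.70 log2. Fitted with the comparison's 6 arrays alone, its call was lost in 3 of them (limma, adjusted p = 0.0683, 0.0726 and 0.0829).

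The named genes whose levels ran closest to SFERH-2 were taken from 918 genes with a name, by Pearson correlation with the leading probe set over the 24 arrays. Over all 33161 soybean probe sets above the signal filter, 185 had r above 0.9 and 63 had r below -0.9. The highest named were the cytochromes P450 CYP82A2 (r = 0.959) and CYP93A1 (0.955), PT01 (0.954), NAC12 (0.953), CYP82A3 (0.944), NAC4 (0.941), NAC27 (0.929) and the glucose-6-phosphate dehydrogenase gene G6PDH (0.926). CYP93A1 makes a late precursor of the soybean phytoalexin glyceollin, and the NAC genes encode transcription factors. By their IDs, the probe sets of NAC4 and NAC27 query the same target sequence, so they may not be separate readings. Over the 8 group means r was 0.959 to 0.990 for these 8 genes, and over deviations from the group means it was 0.380 to 0.746. Over 23 arrays, without replicate 3 of Young in Al alone at 12 h, it was 0.927 to 0.961. Arrays share groups and libraries, so these values describe likeness only.

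The size of the 72 h difference varied among them. CYP82A2 read means of 13.37 in Al alone and 4.44 in Al plus Mg in PI and of 13.09 and 4.36 in Young, a difference larger than that of SFERH-2. CYP93A1 read 11.55 and 5.14 in PI and 11.51 and 5.23 in Young. PT01 read 11.12 and 10.97 in Al alone, and its means of 2.38 and 2.43 in Al plus Mg lay under the lowest array bound. G6PDH read 13.57 and 12.62 in PI and 13.74 and 12.92 in Young, less than 1 log2 unit. These genes were picked by their likeness, and no test was made on them. The most opposite were GAI2, a DELLA-type growth repressor (r = -0.909), EU3 (-0.899), USP1 (-0.894) and CYP97C10 (-0.892). GAI2 read 8.95 in Al alone and 9.79 in Al plus Mg at 72 h in PI, and 8.78 and 10.07 in Young.

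**Figure D4:**
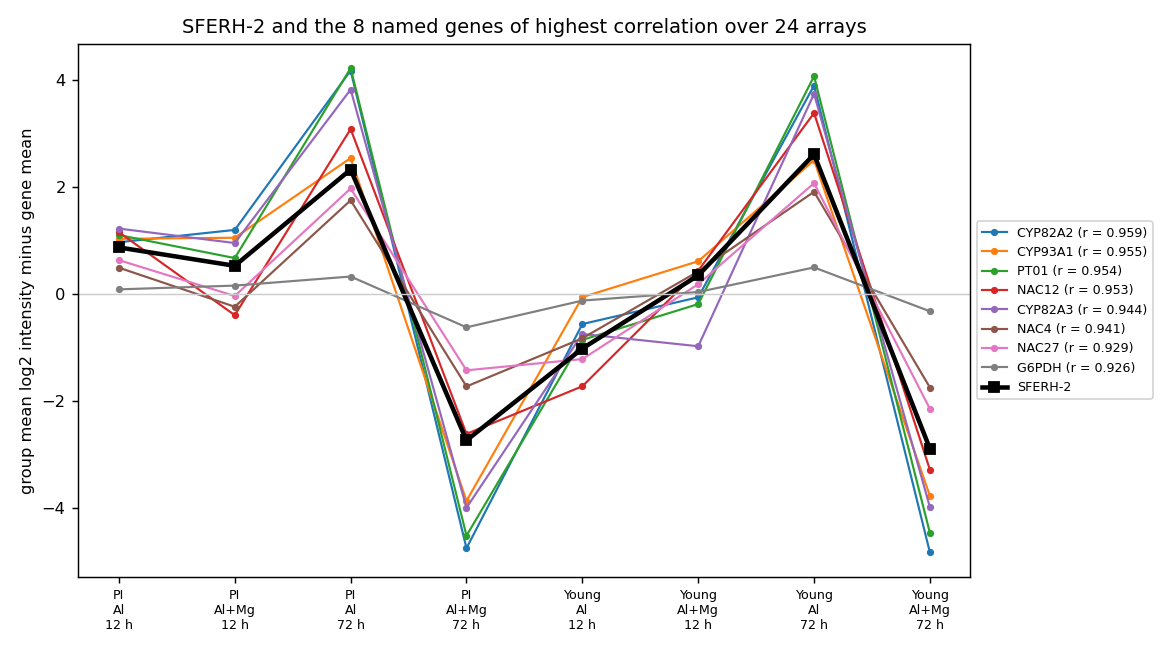
Group mean of log2 intensity minus the gene's mean of the 8 groups (vertical axis) for SFERH-2 (black squares) and the 8 named genes of highest correlation with it over 24 arrays (coloured lines, r in the legend), by group (horizontal axis); lines join the groups only to guide the eye. All 9 genes lie highest in Al alone at 72 h and lowest in Al plus Mg at 72 h in both genotypes, and G6PDH spans the least.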

How the data were processed

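Root-tip RNA on 24 Affymetrix soybean arrays was deposited by the authors as linear intensities, 1 for each array and probe set. How they were background corrected, summarised and normalized is not given in the sources used here. Array medians were 6.421 to 7.151 and the lowest value was 3.22. Per the labels, RNA was reverse transcribed from an oligo-dT primer and labelled with biotin, which favours 3′ ends. The array number limits precision.

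Values were used as log2 with a floor of 1. Groups came from the labels. limma 3.58.1 in R 4.3.3 fitted a mean for each of 8 groups (16 residual degrees of freedom), and p-values were adjusted by Benjamini-Hochberg within each of 14 contrasts over the 37593 soybean probe sets (IDs starting Gma). The 227 controls were left out. The test was also run on simulated data with independent normal noise around a common mean per probe set. That setting is simpler than these data, so the run lends no support to the calls. The signal filter was the 95th percentile of mean log2 values of the 23350 Phytophthora sojae and Heterodera glycines probe sets, 2.394.

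Of the tested probe sets, 8677 had 1 gene in the platform annotation, 370 several and 28546 none, and 8652 of the 8677 had their symbol in a RefSeq table for Glycine_max_v4.0, used for names and gene order. No sequences were used. Each gene was represented by its probe set of highest mean. From each list of symbols, up to 4 passing genes of largest size were to be named per comparison, and all ferritins. To these were added the 8 named genes of highest r and the 4 of most negative r. SFERH-2 and the lists were chosen with earlier results of these data known. Alternatives covered the filter, quantile or median scaling, an offset of 32, the variance model, the replicate block, the arrays fitted and each array left out.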

Additional observations from a re-analysis of the deposited data

How the results depend on the processing

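Of 180 SFERH-2 values under alternatives, 173 stayed within the spread between replicates. Replicate 3 widened that spread wherever Young in Al alone at 12 h was compared. The exceptions to the 173 came from reading another probe set. In Young at 72 h the Mg difference was -7.12 and -6.28 on the Gma.2505.1 sets. The genotype difference in Al alone at 72 h was 0.13 on Gma.2505.2.S1_at and -1.34 and -0.98 on the Gma.2505.1 sets, and the Mg effect in PI minus that in Young at 72 h was 1.79 and 1.63. Leaving out each array in turn gave -5.33 to -4.77 for Mg in PI at 72 h and -5.90 to -5.27 in Young. For Mg in Young at 12 h it gave 0.81 to 2.23, and for PI minus Young in Al alone at 12 h 1.33 to 2.75. For 72 h minus 12 h in Young in Al alone it gave 3.08 to 4.5. For Mg in PI at 12 h it gave -0.68 to -0.09, and for PI minus Young in Al plus Mg it gave both signs, -0.18 to 0.43 at 12 h and -0.12 to 0.55 at 72 h. Quantile or median scaling and an offset of 32 changed no direction on the leading probe set. Of 93 called differences of listed genes, 47 were lost under at least one alternative.

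Counts of called probe sets moved more. With only the arrays of a comparison they were 0 for Mg at 12 h in PI and in Young, 8007 for Mg in PI at 72 h, 365, 1119, 1457 and 1327 for PI against Young (Al 12 h, Al plus Mg 12 h, Al 72 h, Al plus Mg 72 h), with 0, 1, 2 and 3 listed genes, and 221 for the interaction at 72 h. With pathogen probe sets tested as well they were 19821 for Mg in PI at 72 h, 8477 for PI against Young in Al plus Mg at 72 h and 3 for the interaction at 12 h. For Mg in Young at 12 h the signal filter gave 5, an offset of 32 gave 6 and a trended robust variance gave 17, and the offset gave 3 for the interaction at 12 h.

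With the replicate block the counts were 5 and 6 for Mg at 12 h in PI and in Young and 3 for the interaction at 12 h, and no other count moved past 1.5 times. SODB with Mg in Young at 72 h was lost under it (limma, adjusted p = 0.0524), among 4 listed calls lost in all. Of 36 pairs of same-numbered arrays, 10 had correlated deviations over 0.1, with r from -0.428 to 0.41. In 1 comparison, 72 h minus 12 h in Young in Al plus Mg, all 3 pairs were over 0.1 (r = 0.145 to 0.248), and there the block gave 11359 probe sets against 11701 and 9 listed genes against 8. In the other comparisons not all 3 pairs were over 0.1, and whether their same-numbered arrays belong together was not settled.

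Leaving out each array in turn gave 11 to 24 probe sets for Mg in PI at 12 h, 7 to 3117 in Young, 910 to 2006, 2490 to 5115, 2778 to 4334 and 1752 to 3492 for the genotype comparisons in the order above, 3 to 2614 for the interaction at 12 h and 301 to 673 at 72 h. The values of 3117, 2006 and 2614 came without replicate 3 of Young in Al alone at 12 h. Listed genes ran from 0 to 4 for Mg in Young at 12 h, 9 to 14 for time in PI in Al alone, 5 to 9 for time in Young in Al plus Mg, 1 to 2 and 4 to 6 for the genotypes at 12 h, 0 to 3 for the interaction at 12 h and 0 to 1 at 72 h. The cause of these shifts was not tested. All SFERH-2 values lay above the array bound. The background correction of the low values is not given, and its effect on the size of the differences was not tested.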

Other observations

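Gene order on Glycine_max_v4.0 put 2 genes with a probe set within 10 places of SFERH-2. LOC100500143, 1 place away, rose with Mg at 72 h by 0.55 ± 0.13 log2 in PI and 0.81 ± 0.13 in Young (limma, adjusted p = 0.00384 and 0.000105), the opposite direction to SFERH-2. LOC100801792, 2 places away, gave 0.45 ± 0.20 and 0.40 ± 0.20 and did not pass (limma, adjusted p = 0.0909 and 0.121).

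One probe set of the ascorbate peroxidase gene APX2, GmaAffx.65918.1.A1_at, read 2.11 to 2.13 on 19 of 24 arrays and 9.11 to 10.34 on 5, which were the 3 arrays of PI in Al plus Mg at 12 h and replicates 1 and 2 of PI in Al plus Mg at 72 h. Replicate 3 of that last group read 2.13. No other APX2 probe set had that split, and no SFERH-2 probe set did.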
